A study of Mus musculus with 19 samples.

Results

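Proneural basic helix-loop-helix (bHLH) transcription factors drive neural precursors into neuronal fates, and 7 of them were followed here in mouse cerebellum, by name among the 22193 genes of the deposited tables: Atoh1, Nhlh1, Nhlh2, Neurod1, Neurod2, Neurod6 and Ptf1a. Bulk RNA had been sequenced at postnatal day 60 from 19 cerebella of C57BL/6 mice. They came from 3 mice of wild-type genotype (Ctrl), 8 conditional knockouts of Gsa made with Olig1Cre (Olig1-Gnas) and 8 conditional knockouts of Gsa made with hGFAPCre (hGFAP-Gnas). Gsa, the product of Gnas, couples receptors to adenylyl cyclase and so to the making of cAMP. Cre is made where the Olig1 or the human GFAP promoter is active, and cells outside those lineages keep the gene, so each knockout cerebellum is a mixture. The table that holds hGFAP-Gnas carries the word tumor in its name, and the series' title ties Gsa to medulloblastoma driven by Sonic hedgehog, a tumor of cerebellar granule neuron precursors.

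These factors bind DNA as dimers with the widely expressed E proteins, at short sites called E-boxes. Id proteins tie up the E proteins, and Hes and Hey proteins repress proneural genes. In the cerebellum Atoh1 marks the rhombic lip and the dividing granule neuron precursors that come from it, Nhlh1 and Nhlh2 mark neurons that have just been born, and Neurod1 and Neurod2 act in differentiating and mature granule neurons. Ptf1a stands on the other side of this map, as the factor of the ventricular zone from which the inhibitory neurons of the cerebellum arise.

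In both knockouts Atoh1, Nhlh1, Nhlh2 and Neurod6 rose and Neurod2 fell. Neurod1, abundant in every group, did not pass the test. Ptf1a was near 0 in every library. Of the 7 genes, 6 reached 1 FPKM (fragments per kilobase of transcript, scaled to the size of the library) in at least 3 of the libraries compared and were tested with limma on log2(FPKM + 1). Calls were made at 0.05 after Benjamini-Hochberg adjustment over all genes tested. In Olig1-Gnas against Ctrl, 4 of the 6 were called higher and 1 lower, where 36.2% of the 14183 genes tested were called higher and 23.6% lower. In hGFAP-Gnas against Ctrl the count was again 4 higher and 1 lower, where 26.1% of 14305 genes were called higher and 12.8% lower. Both comparisons use the same 3 Ctrl mice, so the repeat is not independent. Without hGFAP-Gnas 1, a library that stood apart, the count was also 4 higher and 1 lower. The background grew there, to 5404 genes called higher and 2760 lower of 14214 tested. Between the knockouts 0 of the 6 were called, and 0.41% of 14386 genes were.

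To show the promoters of members that moved, the window from 250 bases before to 50 bases after the start of the gene is printed for 3 members that rose and for Neurod2, which fell. Sequences are from RefSeq on GRCm38.p6, 5′ to 3′ on the strand of the gene, in lower case with each E-box (CANNTG, which reads the same on both strands) in capitals. The windows are chr1:172057547-172057846 on the minus strand for Nhlh1, chr3:102009895-102010194 on the plus strand for Nhlh2, chr6:55681214-55681513 on the minus strand for Neurod6 and chr11:98329596-98329895 on the minus strand for Neurod2.
Nhlh1: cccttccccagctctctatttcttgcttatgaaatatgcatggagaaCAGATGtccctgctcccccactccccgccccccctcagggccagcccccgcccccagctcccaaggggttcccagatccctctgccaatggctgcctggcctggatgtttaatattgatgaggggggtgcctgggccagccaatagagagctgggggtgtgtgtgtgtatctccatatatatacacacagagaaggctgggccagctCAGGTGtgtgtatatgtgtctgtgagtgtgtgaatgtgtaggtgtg
Nhlh2: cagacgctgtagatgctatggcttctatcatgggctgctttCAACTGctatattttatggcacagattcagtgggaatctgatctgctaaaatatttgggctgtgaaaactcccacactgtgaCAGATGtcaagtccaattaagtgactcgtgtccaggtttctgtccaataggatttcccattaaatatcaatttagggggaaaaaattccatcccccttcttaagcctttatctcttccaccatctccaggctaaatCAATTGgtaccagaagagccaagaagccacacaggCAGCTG
Neurod6: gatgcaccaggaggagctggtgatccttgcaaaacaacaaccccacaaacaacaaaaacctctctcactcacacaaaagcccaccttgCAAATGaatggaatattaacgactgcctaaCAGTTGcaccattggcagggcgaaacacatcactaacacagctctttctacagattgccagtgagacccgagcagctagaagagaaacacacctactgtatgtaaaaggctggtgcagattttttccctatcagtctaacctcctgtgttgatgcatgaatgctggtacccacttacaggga
Neurod2: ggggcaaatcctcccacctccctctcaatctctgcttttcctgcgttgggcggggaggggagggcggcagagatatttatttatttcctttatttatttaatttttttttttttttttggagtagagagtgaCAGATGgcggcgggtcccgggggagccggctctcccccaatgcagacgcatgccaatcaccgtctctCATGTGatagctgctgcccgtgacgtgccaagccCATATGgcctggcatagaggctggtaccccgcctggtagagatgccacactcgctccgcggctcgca

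All 7 members were matched to a RefSeq promoter. At least 1 E-box lies in 72.3% of the 32851 promoters of this length in the table, so its presence sets no member apart. The Nhlh2 window holds 4, at -209 (CAACTG), -127 (CAGATG), +10 (CAATTG) and +45 (CAGCTG) from the start, and 6.49% of promoters hold at least as many. Neurod2 has 3, at -118 (CAGATG), -51 (CATGTG) and -17 (CATATG), a count that 17.6% of promoters reach. Nhlh1 has a CAGATG at -203 and a CAGGTG at +5, and Neurod6 a CAAATG at -162 and a CAGTTG at -132. Neurod1 holds 1, a CATATG at -242, and Atoh1 and Ptf1a hold 0 in their windows. CAGATG or its other strand CATCTG occurs in 17.2% of promoters, CAGGTG or CACCTG in 20.2%, CAGCTG in 16.3% and CATATG in 3.91%. CAGATG is in the windows of Nhlh1 and Nhlh2, which rose, and of Neurod2, which fell, and not in those of Atoh1 and Neurod6, which rose. These are matches of letters, and binding was not measured.

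The depth in reads is unknown from FPKM, and steps among the lowest values gave each library's depth as a multiple of that of Ctrl 2. A deeper class (0.838 to 1.07) held 10 libraries, namely hGFAP-Gnas 1 to 4, Olig1-Gnas 5 to 8 and the first 2 Ctrl libraries, and a shallower class (0.268 to 0.429) the other 9. The sum of all FPKM was 603067 to 689165 in Olig1-Gnas libraries, 505739 to 659634 in hGFAP-Gnas libraries and 508329 to 525832 in Ctrl. For the targeted gene, a listed 0 can be a failed estimate, so its levels are a partial check. Beside the Olig1-Gnas libraries, Gnas measured 651 and 798 FPKM in Ctrl 1 and 2 and is listed at 0 in Ctrl 3, and those knockout libraries ran from a listed 0 to 121 FPKM. In the table of hGFAP-Gnas, Ctrl 2 had 798 FPKM and hGFAP-Gnas 5 had 40.9 FPKM, and the gene is listed at 0 in the other 9 libraries. Loss of Gnas was therefore not shown by these values. Ddx3y, on the Y chromosome, was at 1 FPKM or more in 7 of 8 hGFAP-Gnas, 2 of 8 Olig1-Gnas and 2 of 3 Ctrl libraries. The tissue label was checked against 7 cerebellar genes: Zic1, of granule neurons, averaged 306 FPKM in Olig1-Gnas, 294 FPKM in hGFAP-Gnas and 242 FPKM in Ctrl. En2 averaged 21.4, 21.8 and 53.5 FPKM in the same order, and Gbx2 at most 0.55 FPKM. Of the 6 tested, Meis1 rose in both knockouts, En2 fell in both and En1 fell in Olig1-Gnas. Library hGFAP-Gnas 1 stands apart from its group, and called differences of the members from Ctrl are given with and without it. The hGFAP-Gnas values of most listed genes, and the genes most like Atoh1 and Neurod1, are given only with it.

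**Figure D1:**
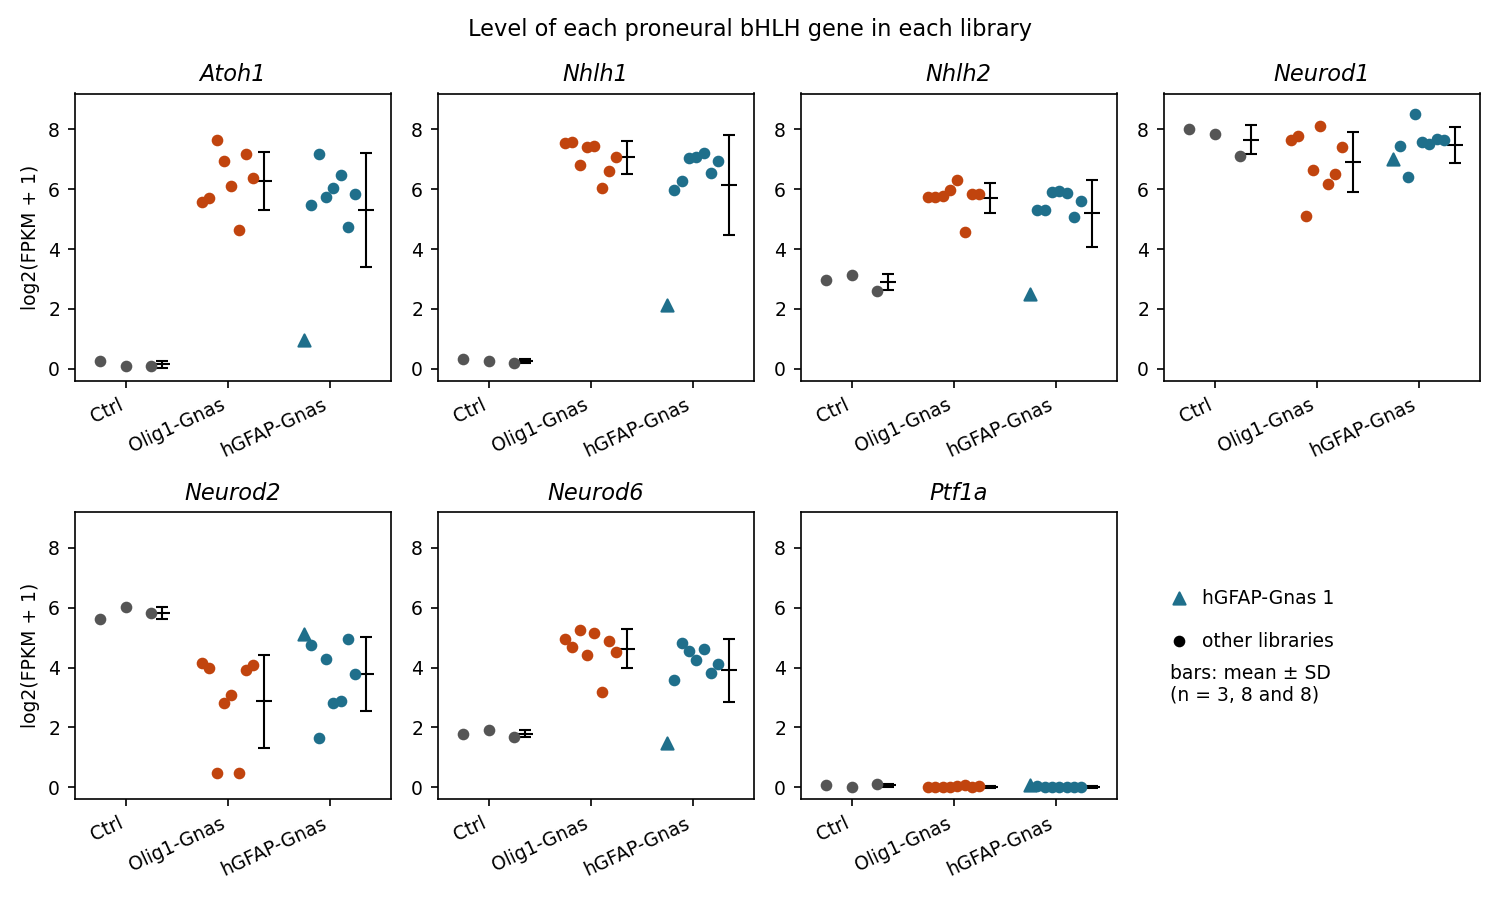
Level of each of the 7 genes, on the y axis as log2(FPKM + 1), in the 3 Ctrl, 8 Olig1-Gnas and 8 hGFAP-Gnas libraries on the x axis, with 1 point per library and bars for the mean ± SD. Atoh1 and Nhlh1 are near 0 in Ctrl and high in every Olig1-Gnas library, and hGFAP-Gnas 1, drawn as a triangle, lies far below the rest of its group for Atoh1, Nhlh1, Nhlh2 and Neurod6.

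Atoh1 (chr6:64679139-64681229, mm9), the factor of granule neuron precursors, was close to absent from adult wild-type cerebellum and abundant in the knockouts. It measured 0.198, 0.0603 and 0.0536 FPKM in the 3 Ctrl libraries. The Olig1-Gnas libraries ran from 23.8 FPKM (Olig1-Gnas 6) through a median of 74.5 to 201 FPKM (Olig1-Gnas 3). The hGFAP-Gnas libraries ran from 0.937 FPKM (hGFAP-Gnas 1) through a median of 54.2 to 145 FPKM (hGFAP-Gnas 3). No knockout library overlapped Ctrl, and hGFAP-Gnas 1 was by far the nearest to it. The mean went from 0.104 ± 0.0815 FPKM (SD, n = 3) to 92.2 ± 59.2 FPKM (SD, n = 8) in Olig1-Gnas, a difference of 6.13 ± 0.52 (SE) in log2(FPKM + 1) (limma adjusted p = 1.91e-06). In hGFAP-Gnas the mean was 59.4 ± 43.2 FPKM (SD, n = 8), a difference of 5.16 ± 1.01 (adjusted p = 0.00796), which became 5.79 without hGFAP-Gnas 1 (adjusted p = 2.15e-06). The added 1 FPKM makes these differences smaller than the ratios of levels. In bulk RNA, more cells that express a gene and more RNA per cell cannot be told apart, for this gene and those below.

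Nhlh1 (chr1:173982422-173987727, mm9), a factor of newborn neurons, had the largest rise of the 6 in both knockouts on the scale of log2(FPKM + 1), while the ratio of mean FPKM was larger for Atoh1. Its Ctrl levels were 0.262, 0.183 and 0.133 FPKM. Every Olig1-Gnas library held at least 64.5 FPKM (Olig1-Gnas 6), with a median of 152 FPKM and a highest level of 192 FPKM (Olig1-Gnas 2). In hGFAP-Gnas the lowest level was 3.40 FPKM (hGFAP-Gnas 1), the median 107 FPKM and the highest 146 FPKM (hGFAP-Gnas 6). The groups did not overlap with Ctrl, and the other 7 hGFAP-Gnas libraries all held 62.1 FPKM or more. The mean rose from 0.192 ± 0.0650 FPKM (SD, n = 3) to 141 ± 46.5 FPKM (SD, n = 8) in Olig1-Gnas, by 6.82 ± 0.30 in log2(FPKM + 1) (limma adjusted p = 6.06e-09). In hGFAP-Gnas it was 95.7 ± 47.5 FPKM (SD, n = 8), a rise of 5.90 ± 0.89 (adjusted p = 0.00569), or of 6.47 without hGFAP-Gnas 1 (adjusted p = 6.20e-08).

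Nhlh2 (chr3:101814067-101819415, mm9), the close relative of Nhlh1, started from a measurable adult level. Ctrl held 6.76, 7.85 and 5.07 FPKM. Olig1-Gnas ran from 22.9 FPKM (Olig1-Gnas 6) through a median of 54.6 to 78.1 FPKM (Olig1-Gnas 5), and hGFAP-Gnas from 4.68 FPKM (hGFAP-Gnas 1) through 43.2 to 60.7 FPKM (hGFAP-Gnas 5). All Olig1-Gnas libraries and 7 of 8 hGFAP-Gnas libraries lay above every Ctrl library, and hGFAP-Gnas 1 lay below all 3. The rise was 2.81 ± 0.28 in Olig1-Gnas (limma adjusted p = 5.84e-06) and 2.29 ± 0.61 in hGFAP-Gnas (adjusted p = 0.0173), in log2(FPKM + 1). Without hGFAP-Gnas 1 the latter was 2.67 (adjusted p = 3.71e-06). The hGFAP-Gnas call was lost when any 1 of the 3 Ctrl libraries was left out (adjusted p of 0.0588 to 0.0674). Because the paralogs started so far apart, their order turned. Nhlh1 stood at 0.0233 to 0.0387 of the Nhlh2 level in Ctrl, at 1.73 to 3.69 times it in Olig1-Gnas and at 1.61 to 2.80 times it in 7 hGFAP-Gnas libraries. In hGFAP-Gnas 1 it stood at 0.725 of it.

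Neurod1 (chr2:79292797-79296793, mm9), which drives granule neuron differentiation and stays on in mature granule neurons, was high in every group. Ctrl held 259, 230.3 and 136 FPKM. Olig1-Gnas ran from 33.3 FPKM (Olig1-Gnas 3) through a median of 133 to 274 FPKM (Olig1-Gnas 5), and hGFAP-Gnas from 84.7 FPKM (hGFAP-Gnas 3) through 186 to 362 FPKM (hGFAP-Gnas 4). Each knockout overlapped Ctrl on both sides: 1 Olig1-Gnas library lay above every Ctrl library and 4 lay below, and in hGFAP-Gnas 1 lay above and 2 below. The difference was -0.74 ± 0.56 in Olig1-Gnas (95% interval -1.97 to 0.49, limma adjusted p = 0.271) and -0.18 ± 0.36 in hGFAP-Gnas (95% interval -0.98 to 0.61, adjusted p = 0.703), in log2(FPKM + 1). These intervals hold a fall of up to 1.97 in Olig1-Gnas, and changes of up to 0.98 down and 0.61 up in hGFAP-Gnas. Within the shallower libraries the hGFAP-Gnas difference turned to 0.51 (adjusted p = 0.101).

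Neurod2 (chr11:98186730-98190959, mm9), a factor of late granule neuron differentiation and survival, was the only member that fell. Ctrl held 48.5, 64.7 and 56.3 FPKM. Olig1-Gnas ran from 0.377 FPKM (Olig1-Gnas 6) and 0.384 FPKM (Olig1-Gnas 3) through a median of 10.8 to 16.6 FPKM (Olig1-Gnas 1). In hGFAP-Gnas the range was 2.11 FPKM (hGFAP-Gnas 3) through 15.8 to 34.1 FPKM (hGFAP-Gnas 1). Every knockout library lay below every Ctrl library, and hGFAP-Gnas 1 was again the nearest to Ctrl. The mean fell from 56.5 ± 8.08 FPKM (SD, n = 3) to 9.47 ± 6.82 FPKM (SD, n = 8) in Olig1-Gnas, a log2(FPKM + 1) difference of -2.97 ± 0.85 (limma adjusted p = 0.0113). In hGFAP-Gnas it fell to 17.0 ± 12.03 FPKM (SD, n = 8), a difference of -2.06 ± 0.66 (adjusted p = 0.0324). Without hGFAP-Gnas 1 the latter difference was -2.25 (limma adjusted p = 0.0142). The Neurod2 call was the least stable of the 5. In Olig1-Gnas it was lost within the deeper libraries (adjusted p = 0.0538) and within the shallower ones (adjusted p = 0.156), where the difference stayed between -2.95 and -2.99. In hGFAP-Gnas it was lost in 11 of 25 alternatives, among them leaving out any 1 Ctrl library (adjusted p of 0.0864 to 0.106) or hGFAP-Gnas 5, 6 or 8 (adjusted p of 0.0502 to 0.0534).

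Neurod6 (chr6:55627812-55631257, mm9), known mainly from pyramidal neurons of the cerebral cortex and hippocampus, rose where its relative Neurod2 fell. Ctrl held 2.43, 2.72 and 2.18 FPKM. Olig1-Gnas ran from 7.99 FPKM (Olig1-Gnas 6) through a median of 26.7 to 37.5 FPKM (Olig1-Gnas 3), and hGFAP-Gnas from 1.81 FPKM (hGFAP-Gnas 1) through 17.3 to 27.0 FPKM (hGFAP-Gnas 3). All Olig1-Gnas libraries and 7 of 8 hGFAP-Gnas libraries lay above Ctrl, and hGFAP-Gnas 1 lay below it. The rise was 2.85 ± 0.36 in Olig1-Gnas (limma adjusted p = 3.43e-05) and 2.12 ± 0.57 in hGFAP-Gnas (adjusted p = 0.0178), in log2(FPKM + 1). Without hGFAP-Gnas 1 the latter was 2.47 (adjusted p = 2.04e-05), and it was not called when any 1 Ctrl library was left out (adjusted p of 0.0631 to 0.0667). The ratio of Neurod6 to Neurod2 was 0.0387 to 0.0501 in Ctrl. In Olig1-Gnas it was 1.36 to 97.6, with a median of 2.72. In hGFAP-Gnas it ran from 0.0532 (hGFAP-Gnas 1) to 12.8 (hGFAP-Gnas 3), with a median of 1.24.

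Because Neurod6 is best known from the forebrain, markers of the dorsal telencephalon were set beside it. Emx1, Emx2, Tbr1 and Fezf2 averaged at most 0.24 FPKM in every group and were too low to be tested. Neurod6 was thus abundant in both knockouts while these 4 markers stayed near 0.

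Ptf1a (chr2:19367289-19369128, mm9), the factor of the inhibitory lineage, was not tested, since no library reached 1 FPKM. It measured 0.0573 FPKM in Ctrl 1 and 0.0776 FPKM in Ctrl 3 and is listed at 0 in Ctrl 2. It was above 0 in 3 of 8 Olig1-Gnas libraries, at up to 0.0606 FPKM, and in 2 of 8 hGFAP-Gnas libraries, at up to 0.0553 FPKM. Without read counts no limit on its expression can be given.

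The calls were recomputed within the depth classes. For Olig1-Gnas, Atoh1, Nhlh1, Nhlh2 and Neurod6 were called higher in each class, with differences of 5.90 and 6.39, 6.50 and 7.16, 2.58 and 3.19, and 2.59 and 3.16 in log2(FPKM + 1) for the deeper and the shallower class. For hGFAP-Gnas the same 4 genes were called within the shallower libraries (limma adjusted p of 0.00297 to 0.0177). Within the deeper libraries, which include hGFAP-Gnas 1, none of the 6 was called (adjusted p of 0.259 to 0.525). With hGFAP-Gnas 1 left out there, an alternative added after the values were known, the 4 were called at 5.96, 6.14, 2.45 and 2.47 (adjusted p of 0.000554 to 0.00837), and Neurod2 was at -2.27 (adjusted p = 0.106). The shallower class holds 1 Ctrl library, which is taken to vary like the others.

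**Figure D2:**
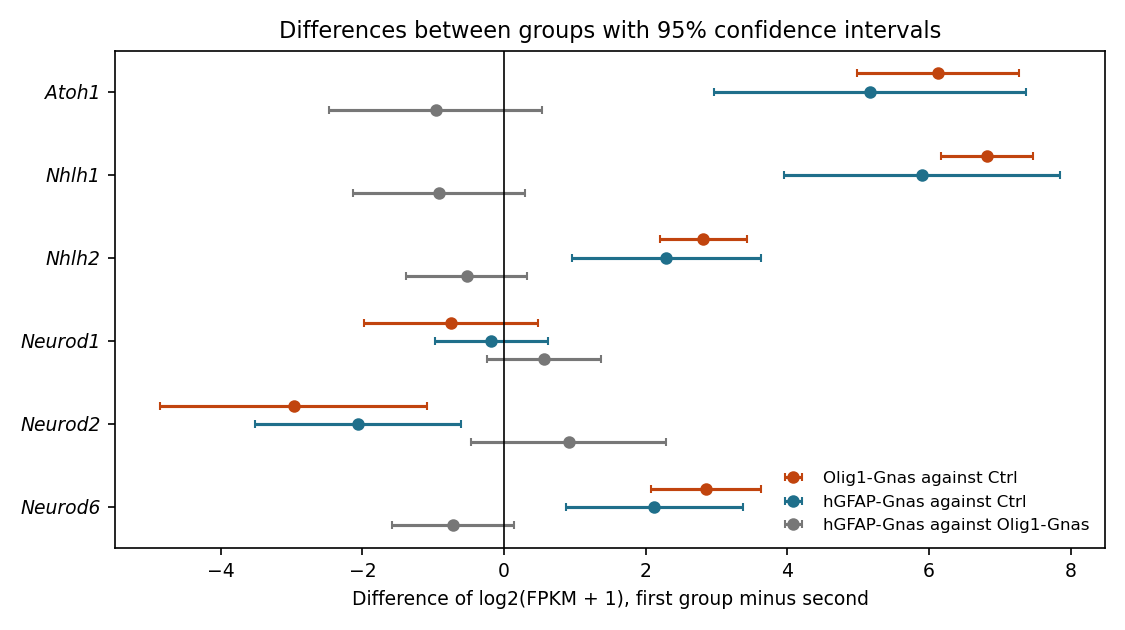
Difference between groups for the 6 tested genes (y axis), in log2(FPKM + 1) on the x axis as first group minus second, with points for the estimate and bars for the 95% confidence interval from limma. Both comparisons with Ctrl lie above 0 for Atoh1, Nhlh1, Nhlh2 and Neurod6 and below 0 for Neurod2, and every interval between the knockouts spans 0.

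The direct comparison of the knockouts sets the level of these factors under the 2 drivers side by side. The Y-linked signal was present in 7 of 8 hGFAP-Gnas and 2 of 8 Olig1-Gnas libraries. An effect of the driver therefore cannot be fully told apart from one that goes with that signal. None of the 6 was called (limma adjusted p of 0.272 to 0.417). None had an unadjusted p under 0.05 either, against 3410 of 14386 genes. The difference of hGFAP-Gnas minus Olig1-Gnas in log2(FPKM + 1) was -0.97 ± 0.71 for Atoh1 (95% interval -2.46 to 0.53), -0.92 ± 0.58 for Nhlh1 (-2.14 to 0.30), -0.53 ± 0.40 for Nhlh2 (-1.38 to 0.33) and -0.72 ± 0.41 for Neurod6 (-1.59 to 0.14). For Neurod1 it was 0.56 ± 0.38 (-0.25 to 1.37) and for Neurod2 0.91 ± 0.65 (-0.46 to 2.29). These intervals are wide, and differences of the sizes they span cannot be told from none with 8 libraries in each group. One library sets much of the size for the 4 genes that rose against Ctrl. Without hGFAP-Gnas 1 the difference was -0.35 for Atoh1, -0.35 for Nhlh1, -0.14 for Nhlh2 and -0.38 for Neurod6, and it was 0.62 for Neurod1 and 0.72 for Neurod2. With the Y-linked signal as a term, the differences of Neurod1 and Neurod2 turned to -0.16 and -0.03.

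FPKM is scaled by transcript length, so levels of different genes in a library can be set side by side. In Ctrl, Neurod1 made up 68.1 to 81.6% of the summed FPKM of the 7 genes and Neurod2 15.3 to 28.2%. Nhlh2 added 2.13 to 2.57%, and each of the others 1.09% or less. The order in all 3 Ctrl libraries was Neurod1, Neurod2, Nhlh2, Neurod6 and Nhlh1, with Atoh1 and Ptf1a last. In Olig1-Gnas the medians of the share were 36.2% for Neurod1, 31.1% for Nhlh1, 14.8% for Atoh1, 12.1% for Nhlh2 and 1.97% for Neurod2. In hGFAP-Gnas they were 46.3% for Neurod1, 21.8% for Nhlh1, 12.3% for Atoh1 and 2.87% for Neurod2. Neurod2 thus went from the second place to the last of the 6 tested genes in every Olig1-Gnas library. Neighbours in the order swap between libraries: the share of Neurod1 spanned 7.63 to 43.3% in Olig1-Gnas and that of Nhlh1 22.5 to 35.6%, and the ranges overlap.

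The share of Atoh1 ran from 8.86 to 45.9% in Olig1-Gnas and from 0.539 to 38.7% in hGFAP-Gnas. Its level exceeded that of Neurod1 in 4 of the 16 knockout libraries, by 6.02 times in Olig1-Gnas 3, 1.24 times in Olig1-Gnas 4, 1.62 times in Olig1-Gnas 7 and 1.71 times in hGFAP-Gnas 3. In Ctrl the highest such ratio was 0.000765. Library hGFAP-Gnas 1 had a composition close to that of Ctrl, with 74.1% Neurod1, 19.6% Neurod2, 2.69% Nhlh2, 1.95% Nhlh1, 1.04% Neurod6 and 0.539% Atoh1. It also had the lowest cell division signal of the knockouts. The summed FPKM of Mki67, Top2a, Birc5, Ccnb1, Cdk1 and Mcm6 was 15.2 there, against 2.06 to 2.35 in Ctrl and up to 716 in the rest of its group. Its summed mature granule neuron markers, at 1476 FPKM, were the highest of the knockouts and just under the lowest Ctrl library, at 1594.5 FPKM. Whether this library holds less of the changed tissue was not tested.

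**Figure D3:**
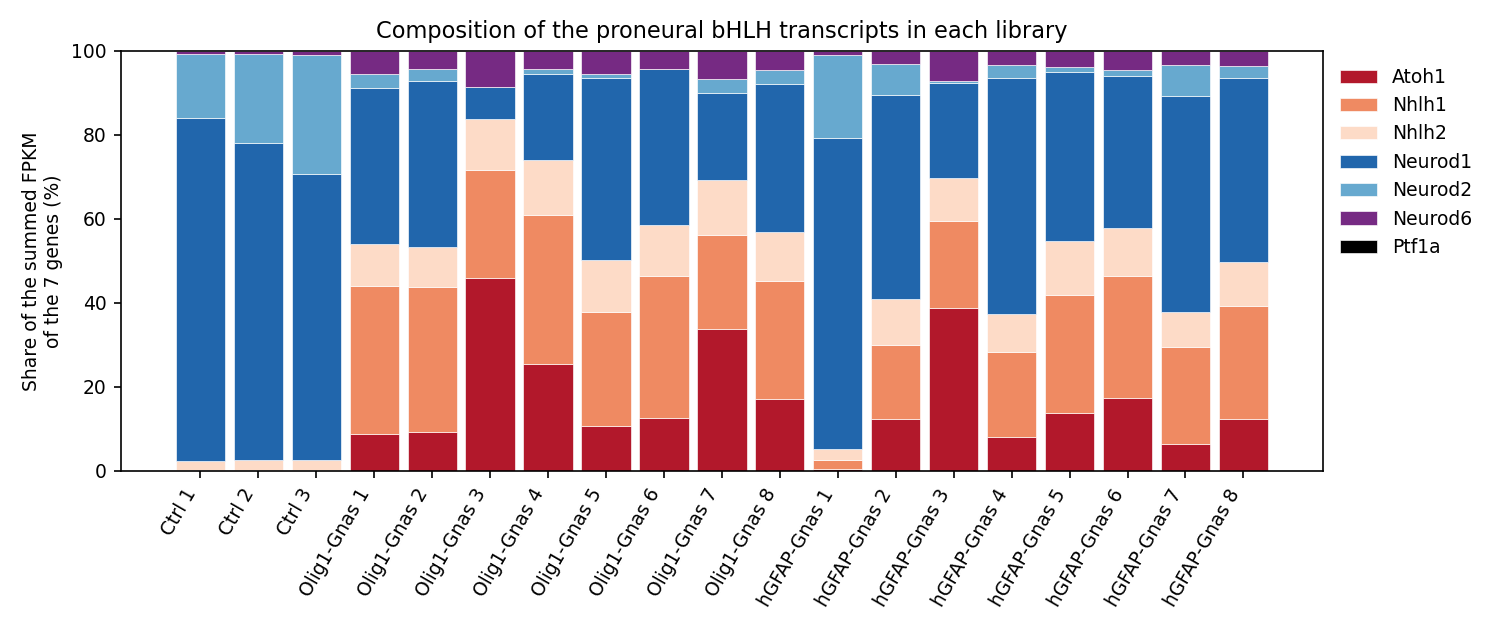
Share of the summed FPKM of the 7 genes (y axis, percent) taken by each gene in each of the 19 libraries (x axis), as stacked bars. Neurod1 and Neurod2 fill nearly all of the bar in Ctrl and in hGFAP-Gnas 1, while Atoh1, Nhlh1 and Nhlh2 take 37.4 to 83.7% of it in the other 15 knockout libraries.

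Other cell types moved with these factors, and their part in the differences was not tested. All 6 cell division markers rose in both knockouts, with a sum of 487 to 1002 FPKM in Olig1-Gnas. Of 8 mature granule neuron markers, 8 fell in Olig1-Gnas and 6 in hGFAP-Gnas, or 8 of 8 without hGFAP-Gnas 1. Their sum was 100.1 to 500.3 FPKM in Olig1-Gnas, 156 to 1476 FPKM in hGFAP-Gnas and 1594.5 to 2068 FPKM in Ctrl. Gabra6, the granule neuron GABA-A receptor subunit, averaged 17.9 ± 31.1 FPKM in Olig1-Gnas against 354 ± 123 FPKM in Ctrl. Purkinje cell markers fell too, 7 of 7 in Olig1-Gnas and 6 of 7 in hGFAP-Gnas, or 7 of 7 without hGFAP-Gnas 1. Their sums were 2277 to 3681 FPKM in Ctrl, 22.8 to 667 FPKM in Olig1-Gnas and 103 to 1790 FPKM in hGFAP-Gnas. Of 6 inhibitory interneuron markers, 4 fell in each knockout, and Sst and Npy were not called in either. Microglia markers rose, 5 of 6 in Olig1-Gnas (4 with upper quartile scaling or quantile normalization) and 6 of 6 in hGFAP-Gnas, with sums of 43.5 to 62.3 FPKM in Ctrl, 347 to 1206 FPKM in Olig1-Gnas and 86.2 to 755 FPKM in hGFAP-Gnas. Of 3 unipolar brush cell markers tested, Eomes and Calb2 fell in both knockouts. Otx2 rose in Olig1-Gnas (1.69 ± 0.46, limma adjusted p = 0.00759) and was at 1.26 ± 0.82 in hGFAP-Gnas (adjusted p = 0.230).

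The partners and opponents of the proneural factors were described next, against a median log2 difference over all genes tested of 0.22 in Olig1-Gnas and 0.19 in hGFAP-Gnas. Upper quartile scaling moved these medians to 0.04 and 0.07, and quantile normalization to 0.06 and -0.01. All 3 E protein genes rose in both knockouts, with median differences of 1.29 and 1.26 in log2(FPKM + 1). Tcf3 (E2A) rose most, from 12.6 ± 0.256 FPKM in Ctrl to 70.9 ± 9.13 FPKM in Olig1-Gnas (2.39 ± 0.12, limma adjusted p = 2.08e-08) and 51.0 ± 19.96 FPKM in hGFAP-Gnas (1.81 ± 0.38, adjusted p = 0.00910). Tcf4 rose by 1.29 and 1.26 and Tcf12 by 1.05 and 0.87. Their Id inhibitors divided. Id1 rose by 1.84 and 1.86 and Id3 by 1.33 and 1.77, while Id4 fell by 2.67 in Olig1-Gnas and was at -0.81 (adjusted p = 0.140) in hGFAP-Gnas. Id2, the most abundant of them at 156 ± 30.4 FPKM in Ctrl, was not called in either knockout. With upper quartile scaling, 1 rather than 2 of the 4 Id genes was called higher in Olig1-Gnas.

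Of 6 Hes and Hey repressors, 4 rose and 1 fell in Olig1-Gnas and 3 rose in hGFAP-Gnas. With upper quartile scaling 3 rather than 4 were called higher in Olig1-Gnas. Hes5 rose by 1.81 and 1.78 in log2(FPKM + 1), Hes6, which unlike its relatives promotes neuronal differentiation, by 1.91 and 1.22, and Hey1 by 1.76 and 1.71. Hes1 rose by 0.64 in Olig1-Gnas and was not called in hGFAP-Gnas (0.65, limma adjusted p = 0.0809), and Hey2 fell by 0.86 in Olig1-Gnas. Hes5 and Hey1 were thus higher in the same knockouts as the proneural factors.

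Among 12 other bHLH genes of neural lineages, 8 were abundant enough to be tested. In Olig1-Gnas 3 rose and 1 fell, and in hGFAP-Gnas 4 rose, or 5 rose and 1 fell without hGFAP-Gnas 1. Olig3, a factor of the rhombic lip, went from 0.108 ± 0.0514 FPKM in Ctrl to 33.0 ± 15.9 FPKM in Olig1-Gnas (4.47 ± 0.98, limma adjusted p = 0.00242) and 33.7 ± 17.7 FPKM in hGFAP-Gnas (4.57 ± 0.82, adjusted p = 0.00699). Neurod4, a further relative of the Neurod genes, rose by 2.63 and 2.40, and Olig2 by 2.33 and 1.83. Olig1, whose driver was used for the first knockout, stood at 44.9 ± 23.8 FPKM in Olig1-Gnas against 27.6 ± 2.80 FPKM in Ctrl (0.49, adjusted p = 0.383), and rose to 92.6 ± 36.9 FPKM in hGFAP-Gnas (1.62, adjusted p = 0.00732). Atoh7, the relative of Atoh1 known from the retina, fell by 2.80 in Olig1-Gnas, from 11.6 ± 6.54 FPKM, and was at -2.04 in hGFAP-Gnas (adjusted p = 0.0574). Neurog1, Neurog2, Neurog3 and Bhlhe23 averaged at most 0.21 FPKM in every group and were not tested.

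Genes placed downstream of Atoh1 in general knowledge did not all follow it. Of 5 tested, 3 rose and 1 fell in each knockout. Barhl1, a homeobox gene of granule neuron precursors, rose from 4.08 ± 0.705 FPKM to 132 ± 24.1 FPKM in Olig1-Gnas (4.69 ± 0.18, limma adjusted p = 2.51e-09) and 106 ± 69.5 FPKM in hGFAP-Gnas (4.09 ± 0.62, adjusted p = 0.00569). Lhx2, a LIM homeobox gene, rose by 3.80 and 3.26, and Gli2, a transcription factor of the hedgehog pathway, by 2.78 and 2.52. Rab15, a small GTPase gene, fell by 1.99 and 1.56. Barhl2 was not called at 0.15 and 0.38. Without hGFAP-Gnas 1 it was called too, which made 4 of 5 higher in hGFAP-Gnas.

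Genes of the Ptf1a program also went both ways, beside a Ptf1a level near 0. Of 6 tested, 3 rose and 3 fell in Olig1-Gnas, and 1 rose and 3 fell in hGFAP-Gnas, or 3 and 3 without hGFAP-Gnas 1. Lhx5, of Purkinje cell precursors and other inhibitory neurons, fell by 2.99 and 2.19 in log2(FPKM + 1), Pax2, of young inhibitory interneurons, by 2.04 and 1.48, and Kirrel2, a membrane protein gene activated by Ptf1a, by 1.58 and 1.30. Rbpj, the Notch effector that also joins the Ptf1a complex, rose by 1.14 and 0.93. Prdm13 rose by 1.44 in Olig1-Gnas and was at 0.97 (limma adjusted p = 0.0566) in hGFAP-Gnas, and Lhx1 rose by 0.69 in Olig1-Gnas and was at 0.78 (adjusted p = 0.0964) in hGFAP-Gnas. With quantile normalization 2 rather than 3 were called higher in Olig1-Gnas and 0 rather than 1 in hGFAP-Gnas, and upper quartile scaling also called 2 in Olig1-Gnas.

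Of 9 genes of young granule neurons, 6 rose and 1 fell in each knockout, with median differences of 3.68 and 2.84 in log2(FPKM + 1). Insm1, a zinc finger gene of neuronal precursors, went from 0.557 ± 0.271 FPKM in Ctrl to 172 ± 65.2 FPKM in Olig1-Gnas (6.74 ± 0.28, limma adjusted p = 4.32e-09) and 131 ± 65.2 FPKM in hGFAP-Gnas (6.04 ± 0.79, adjusted p = 0.00377). Sox11 rose by 4.95 and 4.25, Dcx, a microtubule protein of migrating neurons, by 4.63 and 4.47, and Sox4 by 4.36 and 3.58. Tagln3 fell by 1.57 and 1.11, and Cntn2 and Elavl3 were not called.

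How the members varied from mouse to mouse was read within each knockout, over its 8 libraries, with exact permutation p-values adjusted over 54 relations. In hGFAP-Gnas, libraries with more Atoh1 had less Neurod2: Spearman's rho was -0.98 (exact permutation p = 0.000397, adjusted p = 0.0214) and Pearson's r -0.73 (exact permutation p = 0.0338, adjusted p = 0.114), both on log2(FPKM + 1). Without hGFAP-Gnas 1 and 3, the libraries farthest from the median of Atoh1, r was -0.88. Neurod6 went with Atoh1, with r = 0.97 (exact permutation p = 0.00134, adjusted p = 0.0362) and rho = 0.90 (adjusted p = 0.0964), and r was 0.72 without the same libraries. Nhlh1 and Nhlh2 went together, with r = 0.99 (exact permutation p = 0.00255, adjusted p = 0.0378) and rho = 0.86 (adjusted p = 0.0964), and r was 0.88 without hGFAP-Gnas 1 and 2. In Olig1-Gnas none of these passed: r was 0.01 for Atoh1 and Neurod2 (exact permutation p = 0.977), 0.68 for Atoh1 and Neurod6 (exact permutation p = 0.0599) and 0.75 for Nhlh1 and Nhlh2 (exact permutation p = 0.0506). Without Olig1-Gnas 3 and 6, r was -0.37 and -0.29 for the pairs with Atoh1. Without Olig1-Gnas 6 and 7, it was 0.15 for Nhlh1 and Nhlh2. The difference between the genotypes was not tested. Each depth class holds 4 libraries of each knockout, too few for a value of its own.

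The proliferation marker Mki67 and the mature granule neuron marker Gabra6 were set against each member after the values had been seen. In Olig1-Gnas, Neurod2 was lower where Mki67 was higher, with r = -0.88 (exact permutation p = 0.00347, adjusted p = 0.0378), rho = -0.74 (adjusted p = 0.165) and r = -0.86 without Olig1-Gnas 6 and 8. In hGFAP-Gnas, Mki67 went with Nhlh1 (r = 0.97, exact permutation adjusted p = 0.0378), Nhlh2 (r = 0.97, adjusted p = 0.0451) and Neurod6 (r = 0.96, adjusted p = 0.0461), and these were 0.59, 0.72 and 0.45 without hGFAP-Gnas 1 and 2, so they rest in part on those libraries. By rank none of these 3 passed, with rho = 0.88 (adjusted p = 0.0964), 0.79 (adjusted p = 0.137) and 0.74 (adjusted p = 0.165). The same 3 relations had the other sign in Olig1-Gnas, where r was -0.42, -0.58 and -0.40. None of them passed there (exact permutation adjusted p of 0.246 to 0.450). Without Olig1-Gnas 6 and 8 these 3 values were -0.02, -0.17 and 0.12. Neurod6 was lower where Gabra6 was higher in hGFAP-Gnas, with r = -0.79 (exact permutation p = 0.00104, adjusted p = 0.0362), rho = -0.86 (adjusted p = 0.0964) and r = -0.87 without hGFAP-Gnas 1 and 7. For that pair r was 0.19 in Olig1-Gnas (exact permutation adjusted p = 0.725). No relation of Neurod1 passed. The libraries differ in depth and in the markers of other cell types, which touch every gene at once, so a shared change is no sign of control of one gene by another.

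**Figure D4:**
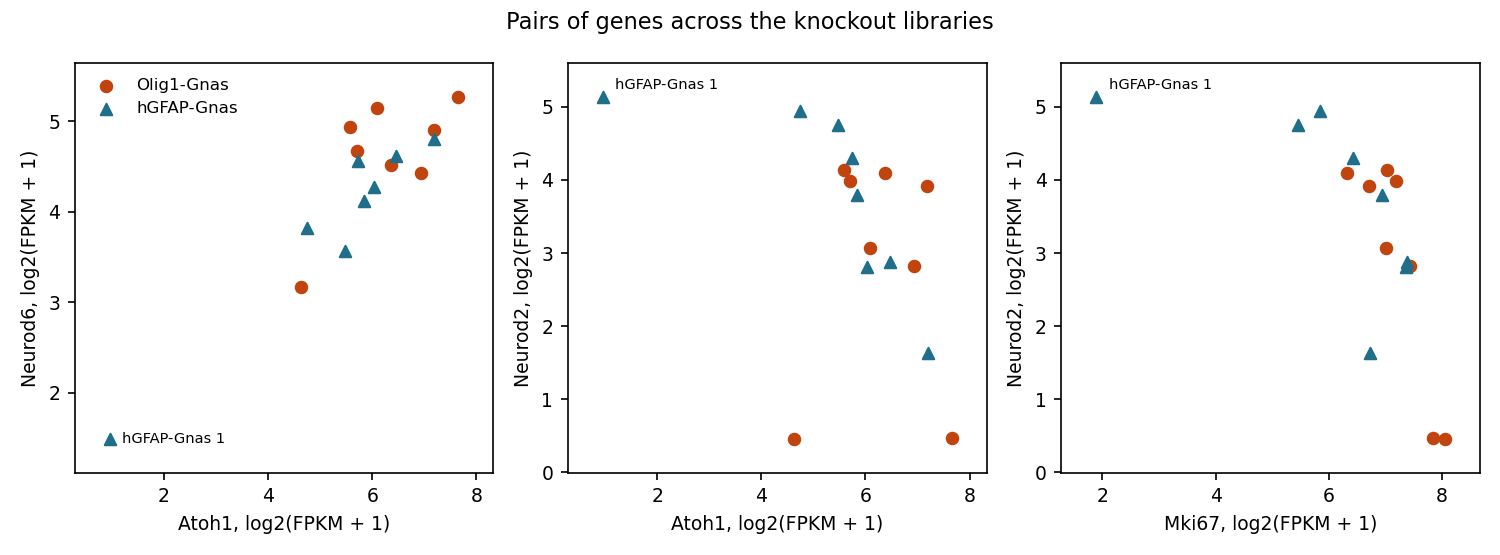
Neurod6 against Atoh1, Neurod2 against Atoh1 and Neurod2 against Mki67 in the 8 Olig1-Gnas (circles) and 8 hGFAP-Gnas (triangles) libraries, both axes in log2(FPKM + 1), 1 point per library. For Atoh1 and Neurod2, rho was -0.98 and r -0.73 in hGFAP-Gnas, and rho was -0.17 and r 0.01 in Olig1-Gnas.

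The genes most like Atoh1 across the 16 knockout libraries were found by Pearson's r of log2(FPKM + 1), after the mean of each genotype had been taken off, among 10973 genes with a mean of at least 5 FPKM. They were Gpx7 (0.98), Shisa2 (0.97), BC048507 (0.97), D630003M21Rik (0.97) and Dph2 (0.97). Gpx7 averaged 2.59 FPKM in Ctrl, 10.1 FPKM in Olig1-Gnas and 6.72 FPKM in hGFAP-Gnas, and Shisa2 2.03, 26.0 and 21.1 FPKM. Of the members, Neurod6 came closest to Atoh1 (0.90), then Nhlh2 (0.86) and Nhlh1 (0.78), with Neurod1 at -0.14 and Neurod2 at -0.40. The 16 libraries include hGFAP-Gnas 1, far below its group for Atoh1, and likeness was not taken again without it. Within Olig1-Gnas alone, r with Atoh1 was 0.68 for Neurod6, 0.61 for Nhlh2 and 0.12 for Nhlh1. It was -0.44 for Neurod1 and 0.01 for Neurod2 there. These values rest on Olig1-Gnas 3 and 6, the libraries farthest from the median of Atoh1. Without them r was -0.29 for Neurod6, 0.17 for Nhlh2, -0.77 for Nhlh1, -0.87 for Neurod1 and -0.37 for Neurod2. Neurod1 was most like Zfp521 (0.94), Rasgef1c (0.93), Lrrtm2 (0.92), Ephb1 (0.91) and Zdhhc22 (0.91), and among the members most like Neurod2 (0.66). The likeness values describe the libraries, which differ in depth and in the markers of other cell types, and carry no test.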

How the data were processed

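Total RNA from 19 cerebella had been made into Illumina TruSeq libraries, per the labels' protocols. The authors deposited FPKM per gene, 1 table per knockout with Ctrl in both. TopHat, Cufflinks and mm9 are named per the submitters' processing notes, and versions, annotation and read totals are not given in the sources used here. Ctrl 2 and 3 are identical between the tables, and Ctrl 1 differs in 5106 genes at a median ratio of 1.0 (5th to 95th percentile 0.977 to 1.01), so values were compared across the tables. Comparisons with Ctrl stayed within a table, and printed Ctrl levels are from that of Olig1-Gnas.

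Genes that reached 1 FPKM in 3 or more libraries of a comparison were tested on log2(FPKM + 1) with limma 3.58.1 (R 4.3.3), with trend and robust moderation and Benjamini-Hochberg adjustment over all genes. Intervals are 95%. The fit was also run on simulated data, drawn for each gene with a spread common to both groups. Those data held no library set apart like hGFAP-Gnas 1, so that run cannot speak to its effect. The labels name separate cerebella, so p-values measure the spread between mice. Lists hold 99 genes in 15 lists, of which 97 are in the tables. Results of some listed genes are not reported here. The members and lists were chosen with earlier results of these data known. Named list genes are the called ones with the largest differences, with others named for their role, and the 5 most like Atoh1 and Neurod1. Correlations used scipy 1.17.1. Alternatives changed the offset, filter, scaling, moderation, zeros, groups in the fit, replicate block, depth class, Y-linked term and each library in turn. No gene overlaps a member's locus in the tables.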

Additional observations from a re-analysis of the deposited data

Results flagged for a closer look

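Library hGFAP-Gnas 1 lay far from the other 7 of its group in 4 of the 6 tested genes. The measure was Dixon's ratio, the gap to the nearest neighbour over the range of the group, taken on log2(FPKM + 1). On that scale the 4 ratios were above the 95% critical value for 8 libraries. The levels beside them are printed in FPKM, a scale on which the ratio was not taken. Atoh1 was 0.937 FPKM there, against 25.8 FPKM in the next lowest library (ratio 0.608). Nhlh1 was 3.40 FPKM, against 62.1 FPKM (ratio 0.760). Nhlh2 was 4.68 FPKM, against 32.9 FPKM (ratio 0.749), and Neurod6 was 1.81 FPKM, against 10.9 FPKM (ratio 0.626). Neurod1, at 129 FPKM, and Neurod2, at 34.1 FPKM, were within the spread by this measure.

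In Olig1-Gnas, library 6 stood apart in the same way for Nhlh2, at 22.9 FPKM against 51.9 FPKM in the next lowest library (ratio 0.664), and for Neurod6, at 7.99 FPKM against 20.6 FPKM (ratio 0.602). It was also the lowest for Atoh1, Nhlh1 and Neurod2, without passing the critical value. In all, 6 of 12 combinations of gene and knockout held such a library. Chance passes about 1 in 20 groups, and the 6 genes share their libraries, so these are not separate events.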

How the results depend on the processing

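Over the alternatives, 141 of 144 differences of the 6 genes for Olig1-Gnas against Ctrl kept their direction and side of the threshold, 124 of 150 for hGFAP-Gnas against Ctrl and 177 of 180 between the knockouts. Read depth is unknown, so low values such as those of Ptf1a carry no limit. For Olig1-Gnas against Ctrl, 8485 genes were called, and 5141 within the shallower libraries. Higher and lower calls there were 5134 and 3351, against 4242 and 4047 with upper quartile scaling and 4231 and 4125 with quantile normalization. For hGFAP-Gnas they were 3738 and 1832, against 3337 and 2164, and 2614 and 2718. For hGFAP-Gnas against Ctrl, 5570 genes were called, 2277 within the shallower libraries and 6 within the deeper ones, where 0 of the 6 members were called. Leaving out each library in turn gave 818 (without Ctrl 2) to 8164 genes (without hGFAP-Gnas 1) and 2 to 5 members, with 2 when any Ctrl library was left out. Without Ctrl 1 it was 1049 genes and without Ctrl 3 1924. Neurod1 turned to 0.51 within the shallower libraries. Between the knockouts, 59 genes were called, 25 with a mean of at least 5 FPKM in a group, 170 with all 3 groups in the fit, 166 with depth class as a term, 3 within the deeper libraries, also with hGFAP-Gnas 1 left out, 3 with the Y-linked term and 11 to 104 on leaving out each library. Neurod1 turned to -0.16 and Neurod2 to -0.026 with the Y-linked term, and Atoh1 to 0.059 in the deeper libraries without hGFAP-Gnas 1, chosen after seeing the data. The cause was not tested, apart from the smaller numbers of libraries.

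Replicate numbers are shared by the labels, but same-numbered libraries did not deviate together (correlations of -0.18 to 0.25), and not every library was best matched by its own number. With a replicate block, which leaves fewer residual degrees of freedom, 8394 genes were called for Olig1-Gnas, 0 genes and 0 members for hGFAP-Gnas (2654 genes at an unadjusted p under 0.05, limma) and 25 between the knockouts. The block also ended the call of Neurod2 in Olig1-Gnas (adjusted p = 0.0548).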

Other observations

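The libraries hGFAP-Gnas 1 and Olig1-Gnas 6 were each the lowest of their group for Atoh1, Nhlh1, Nhlh2 and Neurod6, and differed in other genes. In hGFAP-Gnas 1, Insm1, of neuronal precursors, was 7.91 FPKM and Mki67 2.70 FPKM, the lowest of the knockouts, and Gabra6, of mature granule neurons, was 261 FPKM, the highest. In Olig1-Gnas 6, Insm1 was 309 FPKM and Mki67 264 FPKM, the highest of all 19 libraries, and Gabra6 was 0.894 FPKM. Of the other cell division markers, Birc5, Ccnb1 and Cdk1 were also highest in Olig1-Gnas 6. Top2a (123 FPKM) and Mcm6 (155 FPKM) were lower there than in Olig1-Gnas 3 (255 and 207 FPKM). Barhl1, a homeobox gene of granule neuron precursors, stood at 145 FPKM in Olig1-Gnas 6, near the group mean of 132 FPKM. Olig3, a rhombic lip factor, was 0.212 FPKM there and 29.3 to 53.2 FPKM in the other 7 Olig1-Gnas libraries. Atoh1 was 23.8 FPKM and Neurod2 0.377 FPKM in that library. These libraries were singled out after their values were seen, and no explanation was tested.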
